A study of Mus musculus with 20 samples.

Results

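Kallikreins and the skin protease inhibitors were followed as 8 genes, matched by symbol among the 31055 features of both deposited matrices: Klk5, Klk6, Klk7, Klk8, Klk9 and Klk10, which encode serine proteases, and Spink5 and Slpi, which encode secreted protease inhibitors. All 8 were found in both matrices. Kallikreins are secreted as inactive precursors, and in the outer epidermis they cleave corneodesmosomes, the junctions that hold dead surface cells together, so that scales are shed. LEKTI, the product of Spink5, restrains them and its loss in humans causes Netherton syndrome. SLPI is a small secreted inhibitor of elastase and of other neutrophil and skin proteases.

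The cells came from mouse dorsal skin epidermis in anagen, when follicles grow hair, captured as single cells with 10x Genomics 3' v3 chemistry. Control mice carried Nfatc1-CreER, R26R and mTmG and are listed as 4 samples, with tamoxifen for 3 days from postnatal day 21 or 22. Mutant mice carried the same transgenes and were Fgf5-/-, are listed as 16 samples, and received tamoxifen for 3 days from postnatal day 23 or 24. Nfatc1-CreER is a recombinase active in cells that express Nfatc1, such as hair follicle bulge stem cells, and only after tamoxifen. Both groups therefore had the driver, the reporters and the drug, and genotype cannot be told apart from the later start of tamoxifen. Each group was deposited as 1 pooled matrix with no map from cells to samples, so each counts as 1 sample, no difference was tested, and every interval covers counting error only. The labels give neither the age at harvest nor a description of the Fgf5 allele. In outer root sheath keratinocyte-like cells, defined below by markers, Fgf5 had 376 UMIs in the Control and 62 in the Mutant library, so 3' tags of the gene were still counted in the Mutant library. These are counts and not levels, since the class held 14768504 Control and 4798768 Mutant UMIs in all.

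After filtering, the Control library kept 13790 cells and 130487694 UMIs (unique transcript counts), and the Mutant library kept 11002 cells and 87579498 UMIs, at medians of 5591.5 and 5984.5 UMIs a cell. The matrices shared 59 barcodes, 36 of them among kept cells. Clusters were named from marker genes, and the 16 classes that had 100 or more cells in both libraries were compared. Levels are CPM, the gene's UMIs scaled to the class total, and ratios are log2 of Mutant over Control. A ratio passed the size rule if it was at least 2-fold, its nearer 95% bound lay beyond 1.5-fold and the higher library had at least 20 CPM. "Rose" and "fell" are used only for such ratios.

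The 6 kallikrein genes lie side by side on the plus strand of chromosome 7 (GRCm38), in the order Klk10, Klk9, Klk8, Klk7, Klk6 and Klk5. Klk10 spans chr7:43781035-43785410, Klk9 chr7:43791891-43796757, Klk8 chr7:43797577-43803826, Klk7 chr7:43811294-43816359, Klk6 chr7:43824499-43832030 and Klk5 chr7:43841971-43851181. Slpi lies at chr2:164354070-164389095 on the minus strand, and Spink5 on another chromosome. All 8 are protein-coding. In the last 400 bases of their annotated transcripts, no run of 60 bases was shared with a transcript of another gene, so 3' reads of these near relatives can be told apart by sequence. The antisense noncoding gene 2310002F09Rik spans all of Klk9 and Klk10 and 382 bases of Klk8. Whether strand was used in counting is not given in the sources used here.

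The 250 bases before the start of Klk7, Klk8 and Klk9 are shown because these neighbours had different ratios in the same cells. Promoter windows were found for 7 of the 8 genes. The sequences are RefSeq's for GRCm38.p6, plus strand, 5' to 3', at chr7:43811044-43811293, chr7:43797327-43797576 and chr7:43791641-43791890. Capitals mark matches to GGGCGG, the letters of the Sp1 box, on either strand.
Klk7: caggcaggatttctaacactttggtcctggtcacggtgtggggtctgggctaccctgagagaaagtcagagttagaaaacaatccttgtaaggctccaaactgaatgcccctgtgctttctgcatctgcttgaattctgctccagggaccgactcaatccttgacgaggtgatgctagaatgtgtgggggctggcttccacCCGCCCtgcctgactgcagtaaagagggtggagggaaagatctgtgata
Klk8: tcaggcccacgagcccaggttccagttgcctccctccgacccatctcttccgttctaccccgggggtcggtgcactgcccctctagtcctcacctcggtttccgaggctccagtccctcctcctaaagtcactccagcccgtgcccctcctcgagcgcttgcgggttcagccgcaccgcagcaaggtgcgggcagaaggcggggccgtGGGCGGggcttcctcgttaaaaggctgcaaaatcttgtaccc
Klk9: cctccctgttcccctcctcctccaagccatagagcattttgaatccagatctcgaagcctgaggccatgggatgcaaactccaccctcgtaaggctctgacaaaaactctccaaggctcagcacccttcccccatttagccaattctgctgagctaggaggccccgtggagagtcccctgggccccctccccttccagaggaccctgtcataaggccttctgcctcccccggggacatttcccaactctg
Klk7 and Klk8 each held 1 such match, 49 and 42 bases before the start, and Klk9 held 0. Among 32851 RefSeq windows of this kind, 32.7% held GGGCGG somewhere. Also searched on both strands were TATAAA, the letters of the TATA box, and TGANTCA, those of the AP-1 site, and none of these motifs overlap. Neither was in any of these 3 windows, while 12.4% and 6.75% of all windows held them. The letters are a description of these windows and say nothing about which factors bind there.

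Across cell classes, 7 of the 8 genes peaked in the same place in both libraries. Klk5, Klk6, Klk7, Klk8, Klk9, Klk10 and Spink5 were highest in cluster 15, a cluster of differentiating epidermal cells led by Krtdap, Krt77 and Krt10 with Calm4, Asprv1, Lor and Spink5 itself. Granular keratinocyte markers scored highest (4.61, against 4.31 for suprabasal markers), but its 10 leading genes held 1 granular and 5 suprabasal markers. Only 2 granular markers were detected in at least 10% of its cells, below the minimum of 3, so the cluster keeps its number. It held 220 Control and 616 Mutant cells, 1.60% and 5.60% of all cells, at median depths of 7892 and 7535.5 UMIs. The next level of Klk5, Klk6, Klk7 and Klk10 in the Control library was in upper follicle keratinocyte-like cells, a class named from its markers and led by Cst6, Cidea, Defb6, Krt79, Fa2h, Elovl6 and Akr1c18, with lipid synthesis genes known from sebaceous cells among them. Levels were ranked over the 22 classes with at least 50 cells in a library. Counting intervals separated cluster 15 from the class below it for Klk5, Klk6, Klk7, Klk8 and Spink5 in both libraries, and for Klk9 and Klk10 in the Mutant library alone. For Klk9 in the Control library, cluster 15 at 11.7 CPM could not be separated from Schwann cell-like cells, whose 6.90 CPM had an interval of 0.175 to 38.5.

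Slpi, which inhibits neutrophil elastase, had a different distribution. Its highest Control level was in outer root sheath keratinocyte-like cells, the outer sleeve of the follicle, at 617 CPM, followed by companion layer cell-like cells at 211 CPM. Cluster 15 had 8.68 CPM of Slpi in the Control library. In the Mutant library outer root sheath keratinocyte-like cells had 372 CPM, which could not be separated by its interval from 396 CPM in cluster 24, a mixed cluster led by Cd74 and Cd207 with mast cell genes.

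**Figure D1:**
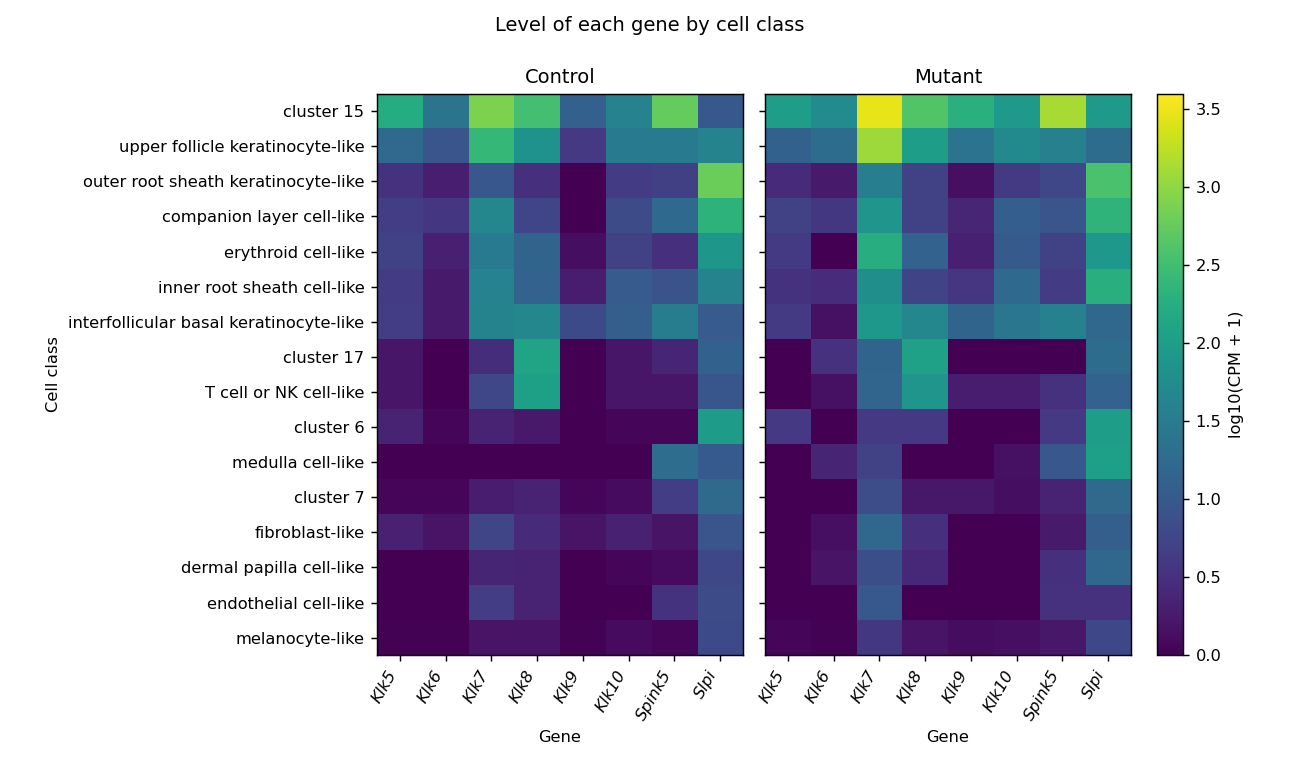
Heat maps of log10(CPM + 1) for the 8 genes (columns) in 16 cell classes (rows) of the Control and Mutant libraries, with classes ordered by the summed level of the 8 genes. Klk5 to Klk10 and Spink5 are brightest in cluster 15, Slpi in outer root sheath keratinocyte-like cells, and Klk8 also appears in the T cell classes.

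In cluster 15, 6 of the 8 genes rose in the Mutant library, against 5.98% of the 5467 genes compared in that class. The median log2 ratio was 1.23 for the 8 genes and -0.21 for all genes compared. The 6 were the proteases Klk6, Klk7, Klk9 and Klk10 and both inhibitors. TMM factors, a scaling that centres most genes on no change, moved every ratio in this class up by 0.38 and left those 6 calls in place.

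Klk7, the chymotrypsin-like protease that cleaves corneodesmosin, went from 772 CPM (95% interval 734 to 812) in the Control library to 2888 CPM (2841 to 2935) in the Mutant library, a log2 ratio of 1.90 (1.83 to 1.98). With every cell thinned to 1500 UMIs, which left out 7 Control and 5 Mutant cells of lower depth, 38.5% of 213 Control cells and 52.2% of 611 Mutant cells had a Klk7 UMI, and the cells that did had 3.16 and 7.97 UMIs on average. Before thinning, 114 of 220 Control and 375 of 616 Mutant cells held Klk7, so both levels were spread over many cells. The 5 richest cells gave 16.9% and 5.46% of the class's Klk7 UMIs. These 2 shares do not compare the libraries, since 5 cells are a larger part of 220 than of 616.

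Klk9, a less studied kallikrein, had the largest ratio of the 8 in this class. It went from 11.7 CPM (7.45 to 17.6) to 195 CPM (183 to 207), a log2 ratio of 4.05 (3.46 to 4.71). This rests on 23 Control UMIs in 19 cells and 990 Mutant UMIs in 242 cells. After thinning, 1.88% and 18.7% of cells held a Klk9 UMI, with 1 and 1.42 UMIs per cell that held it.

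Klk6 rose from 23 to 53.6 CPM (log2 ratio 1.22, 0.76 to 1.71) and Klk10 from 38.8 to 84.3 CPM (1.12, 0.76 to 1.49). Few cells held them, Klk6 in 14 of 220 Control and 53 of 616 Mutant cells and Klk10 in 23 and 125. After thinning neither passed the size rule, at 0.76 (-0.12 to 1.74) for Klk6 and 0.80 (0.015 to 1.68) for Klk10.

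Klk5 and Klk8 did not pass the rule. Klk5, a trypsin-like protease that can activate other kallikreins, had 169 CPM in Control (151 to 188) and 98.6 CPM in Mutant cells (90.2 to 108), a log2 ratio of -0.78 (-0.98 to -0.57), which TMM factors moved to -0.40. Klk8, also called neuropsin, had 336 and 422 CPM (0.33, 0.21 to 0.46). The ratio of Klk5 thus lay on the other side of 0 from that of Klk7, whose precursor it can activate.

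Among the inhibitors, Spink5 rose from 568 CPM (535 to 602) to 1331 CPM (1299 to 1363), a log2 ratio of 1.23 (1.14 to 1.32). After thinning, 32.9% of Control and 51.2% of Mutant cells held it. Slpi rose from 8.68 to 87.4 CPM (3.33, 2.64 to 4.12), but 57.3% of its 445 Mutant UMIs were in 5 cells and 61 of 616 cells held any. In the Control library 58.8% of them were in 5 cells and 12 of 220 cells held any. The Spink5 ratio was smaller than that of Klk7, with intervals apart.

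**Figure D2:**
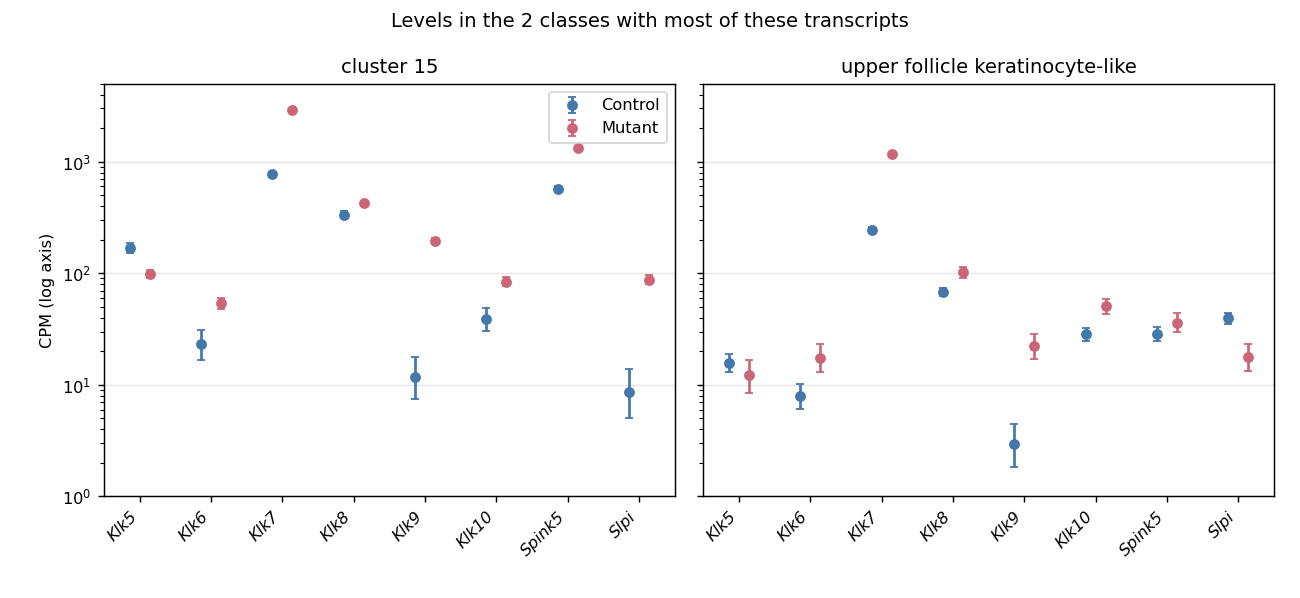
CPM on a log axis for the 8 genes in cluster 15 and in upper follicle keratinocyte-like cells, with Control and Mutant points and exact 95% Poisson intervals. In cluster 15 the Mutant points of Klk7 (2888), Klk9 (195), Spink5 (1331) and Slpi (87.4) lie above the Control points, while the Klk5 point lies lower (98.6 against 169).

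The ratios in cluster 15 were read again among more similar cells, a division chosen after seeing the data. At resolution 2 the cluster split into a Krt77-led subset (143 Control and 365 Mutant cells) and a subset led by 2310046K23Rik and Flg (64 and 247 cells), with Klk7 itself among its leading genes. The second subset made up 29.1% of the class in the Control and 40.1% in the Mutant library. Within the Krt77-led subset Klk7 rose from 239 to 1160 CPM (2.28, 2.11 to 2.45), Klk9 from 13.5 to 175 (3.70), Spink5 from 518 to 1506 (1.54) and Slpi from 7.94 to 102 (3.68). The Flg-led subset had under 100 Control cells, so its values are given without a call. Klk7 had 1849 and 5677 CPM there (1.62, 1.53 to 1.71), Klk9 10.4 and 228 (4.46), Spink5 693 and 1058 (0.61, 0.45 to 0.77) and Klk5 202 and 92.1 (-1.14, -1.48 to -0.79).

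Cells were also divided by whether they held a UMI of a list of 17 late differentiation genes after thinning. Klk7 had log2 ratios of 2.16 among cells without and 1.33 among cells with such a UMI, and Klk9 had 4.02 and 3.83. Spink5 had 1.57 and 0.56. The bins are ranges of a count and not cell types, and the second holds only 35 Control and 123 Mutant cells.

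**Figure D3:**
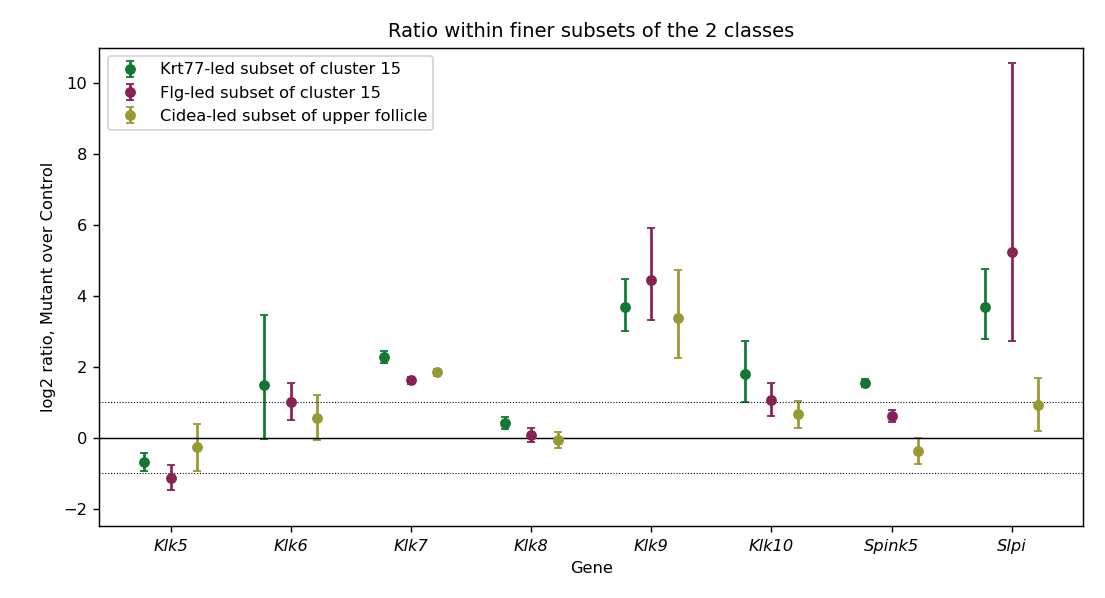
Log2 ratio of Mutant over Control with exact 95% intervals for the 8 genes in the Krt77-led and Flg-led subsets of cluster 15 and the Cidea-led subset of upper follicle keratinocyte-like cells, with dotted lines at 2-fold. Klk7 and Klk9 lie above 1 in all 3 subsets, and Spink5 lies at 1.54, 0.61 and -0.36. The Krt6a-led subset of upper follicle keratinocyte-like cells, with 21 Mutant cells and a Klk7 ratio of -1.12, is not shown.

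The 8 genes form 28 pairs, read in thinned cells of cluster 15. For 26 of them in the Mutant library, either gene was in a larger share of cells with the other gene than without it. For 2 the share was smaller, and in the Control library the counts were 16 and 12. In upper follicle keratinocyte-like cells these counts were 15 and 13 in the Mutant and 17 and 11 in the Control library. Many pairs rest on few cells, and cluster 15 had 213 thinned Control cells against 611 Mutant cells. Each of its 12 Control pairs with a smaller share included Klk6, Klk9, Klk10 or Slpi. Those genes were found in 8, 4, 8 and 1 of the 213 cells. Among 611 thinned Mutant cells of cluster 15, Klk7 was in 72.8% of the 114 cells with Klk9 and in 47.5% of those without. Spink5 was in 63.3% of the 319 cells with Klk7 and in 38.0% of those without, and Klk9 was in 27.2% of the cells with Spink5 and in 9.73% of those without. Klk10 was in 6.19% of Mutant cells with Klk8 and in 6.23% of those without, and Slpi was in 0 of the 38 cells with Klk10 and in 4.19% of those without. In the Control library Spink5 was in 42.7% of 82 cells with Klk7 and in 26.7% of the rest. These cells share a library, and differentiation stage and depth vary among them.

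Markers of other cell types moved with these ratios. In cluster 15 the summed level of 7 melanocyte markers was 1547 CPM in Control and 346 CPM in Mutant cells, of 6 T cell markers 252 and 30.8, and of 5 erythroid markers 469 and 1038. All 6 T cell markers and 6 of the 7 melanocyte markers were lower past the size rule. Median mitochondrial shares were 2.24% and 3.58%. The part of these values in the ratios was not tested.

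Upper follicle keratinocyte-like cells (503 Control and 393 Mutant cells) had 6 of the 8 genes at the level minimum, with 2 higher and 1 lower, against 4.79% and 7.21% of the 5704 genes compared. Klk7 rose from 246 CPM (235 to 258) to 1180 CPM (1142 to 1220), a log2 ratio of 2.26 (2.18 to 2.34). Klk9 rose from 2.95 to 22.2 CPM (2.91, 2.20 to 3.68), on 22 and 66 UMIs. The Klk9 call was lost with each cell thinned (1.09, -1.27 to 3.77) and with the mean of each cell's own CPM (2.60). Klk6 had 7.92 and 17.5 CPM (1.15), under the level minimum, Klk8 68.2 and 102 (0.58), Klk10 28.3 and 50.5 (0.84), Klk5 15.8 and 12.1 (-0.38) and Spink5 28.6 and 36.1 (0.33). None of these 5 passed the rule, Klk5 and Klk6 being under the minimum.

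Slpi fell in this class from 39.6 to 17.9 CPM (-1.15, -1.60 to -0.72), but the direction turned in the larger subset once the class was divided. A Cidea-led subset, with Fa2h, Elovl6, Scd1 and Plin2 also among its leading genes, held 255 of the Control and 362 of the Mutant cells, 50.7% and 92.1% of the class. A Krt6a-led subset with Sox9 among its leading genes held 241 and 21 cells. Slpi had 8.86 and 16.7 CPM in the first (0.91, 0.18 to 1.67), and 61.0 and 38.9 CPM in the second (-0.65, -1.79 to 0.30). The last level was 9 UMIs, all in 1 of the 21 Mutant cells. Within the Cidea-led subset Klk7 rose from 361 to 1296 CPM (1.84). In the Krt6a-led subset the direction of Klk7 turned, at 160 and 73.5 CPM (-1.12, -1.91 to -0.43), given without a call. The Mutant level there rests on 17 UMIs in 4 of 21 cells. Sebaceous gland markers summed to 1409 and 668 CPM and upper follicle markers to 1571 and 3596 CPM in the whole class, and their part in the ratios was not tested.

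In 3 other classes Klk7 passed the rule at far lower levels. In interfollicular basal keratinocyte-like cells it had 39.3 and 81.0 CPM (1.04), in outer root sheath keratinocyte-like cells 8.53 and 33.8 (1.98), and in erythroid cell-like cells 30.9 and 177 (2.52). The background of higher calls in these classes was 5.36%, 1.04% and 1.17%. Few cells carried the values. The 5 richest gave 40.9%, 63.5% and 64.0% of the Control UMIs and 59.5%, 82.1% and 98.2% of the Mutant UMIs. In the erythroid class 8 of 146 Mutant cells held any. In these classes 2 of 4, 1 of 2 and 1 of 2 members at the level minimum passed. In melanocyte-like cells, which should lack the gene, Klk7 had 0.540 and 2.81 CPM, in fibroblast-like cells 4.58 and 15.3, and in endothelial cell-like cells 3.54 and 8.86. The interval of the ratio excluded 0 in melanocyte-like cells (2.38, 1.39 to 3.52) and fibroblast-like cells (1.74, 0.61 to 3.05) and not in endothelial cell-like cells. In the clustering without the genes past the size rule, melanocyte-like cells had 5.64 and 6.14 CPM (0.12, -0.27 to 0.51), and fibroblast-like cells a ratio of 1.75 (0.68 to 2.98). Cluster 24, with Langerhans and mast cell genes, had 83.8 CPM of Klk7 in both libraries. The part of this background in the 3 classes above was not tested.

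Klk10 was the other gene that rose in basal cells, so 2 of the 4 members at the level minimum did so, against 5.36% of genes. It went from 11.4 to 25.0 CPM (1.13, 0.77 to 1.51), spread over 73 of 958 Control and 139 of 1318 Mutant cells. Different clusters hold this class in each library, since cluster 10 held 948 of the Control cells and cluster 4, led by Tslp and Ccl20, held 1270 of the Mutant cells. In a clustering formed without the genes past the size rule Klk10 had 0.83 (0.57 to 1.10), below the rule. Spink5 had 31.2 and 37.7 CPM in basal cells (0.27), and Klk8 44.9 and 45.9 (0.03).

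Slpi rose in 2 of the inner classes of the hair follicle and not in others. In inner root sheath cell-like cells, the sheath that shapes the hair shaft (leading genes Tchh and Krt71), it went from 39.8 to 186 CPM (2.22, 2.11 to 2.33), 1 of 2 members at the level minimum, against 3.13% of genes. Without cluster 19, which had a median of 17212 UMIs, the ratio was 2.54, a setting chosen after seeing the data. Its UMIs were in 163 of 1452 Control and 85 of 464 Mutant cells, and 5 cells gave 24.6% and 35.9% of them. In medulla cell-like cells, the hair core, Slpi went from 9.59 to 108 CPM (3.50, 2.67 to 4.47), the only member at the level minimum there, against 6.01%. Of the UMIs, 66.7% were in 5 of 163 Control cells and 66.9% in 5 of 322 Mutant cells. The ratio was 0.90, 0.76 and 0.36, below the rule, under 3 other clusterings, so the call depended on the clustering. Hair cortex or cuticle cell-like cells, under 100 in each library and so not compared, had 27.7 CPM (21.4 to 35.2) and 2.60 CPM (0.54 to 7.61), on 66 and 3 UMIs (-3.41, -5.72 to -1.80). Cluster 7, led by the hair keratin Krt35, had 16.4 and 16.6 CPM (0.01).

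In the compared classes where Slpi was most abundant in the Control library it did not pass the rule. Outer root sheath keratinocyte-like cells had 617 CPM in Control (604 to 630) and 372 CPM in Mutant cells (355 to 390), a log2 ratio of -0.73 (-0.80 to -0.66). Companion layer cell-like cells had 211 and 217 CPM (0.04), and cluster 6, led by Slc39a10 and Fgf5, had 97.1 and 101 (0.06). Cluster 1, led by Hist1h1b and Stc1 with Slpi among its leading genes, held 52 Control and 1619 Mutant cells and was not compared, at 142 and 354 CPM. It held 50.7% of the Mutant library's Slpi UMIs. Cluster 24, with 91 Control and 107 Mutant cells and also not compared, had 12.5 CPM (7.54 to 19.6) and 396 CPM (354 to 443), on 19 and 317 UMIs (4.98, 4.32 to 5.73).

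**Figure D4:**
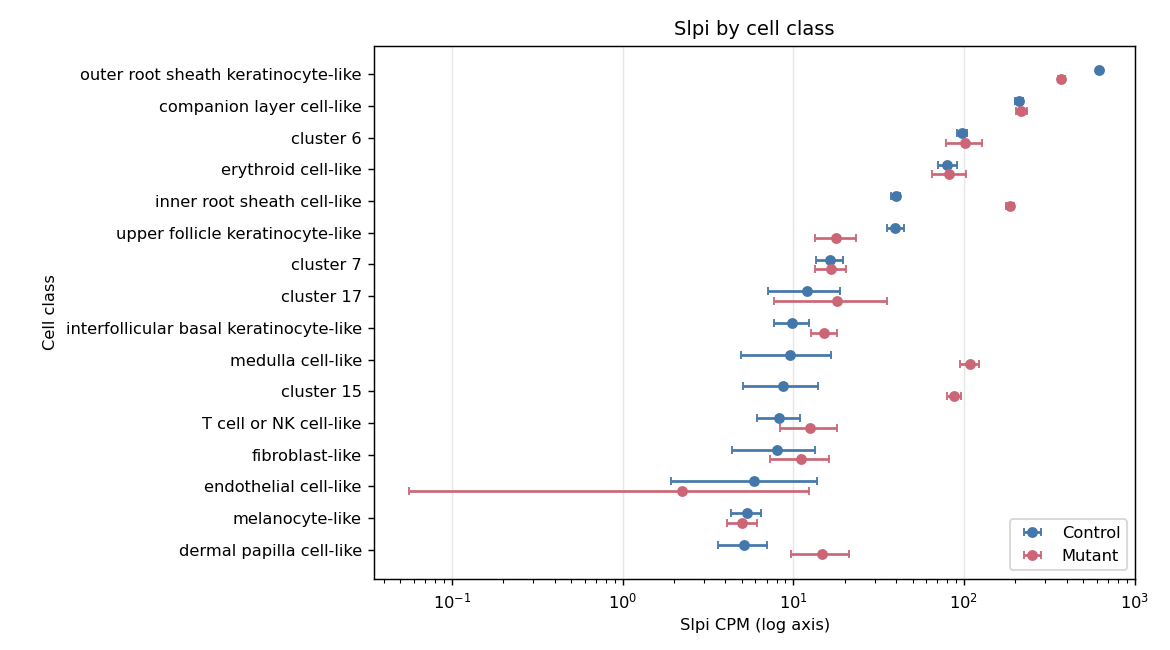
Slpi CPM on a log axis in 16 cell classes of the Control and Mutant libraries, ordered by the Control level, with exact 95% Poisson intervals. The Mutant point lies right of the Control point in inner root sheath cell-like (186 against 39.8), medulla cell-like (108 against 9.59) and cluster 15 cells (87.4 against 8.68), and left of it in outer root sheath keratinocyte-like cells (372 against 617).

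Klk8 was also found in T cell classes. In the T cell or NK cell-like class it had 109 CPM in Control (101 to 118) and 73.3 CPM in Mutant cells (62.5 to 85.5), a log2 ratio of -0.58 (-0.83 to -0.33). This ratio did not pass the rule. Of these cells 21.7% and 12.7% held a Klk8 UMI, at median depths of 2245 and 1931 UMIs. Cluster 17, with T cell genes such as Il17a in the lead, had 126 and 112 CPM (-0.17). Melanocyte-like cells, at medians of 13971 and 12997.5 UMIs, had 0.662% and 0.611% of cells with Klk8. The T cells held 645 Control UMIs of Klk8 against 29 of Klk7, while cluster 15 held 657 against 1512. Where the Klk8 UMIs of the T cells came from was not tested.

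The T cell value was not even over clusters. After thinning, 9.54% of Control cells of cluster 2 and 9.46% of Mutant cells of cluster 8 held Klk8, and 25.4% of Control cells of cluster 13. Cluster 13 held 849 Control and 18 Mutant cells, while cluster 2 held 1543 and 12 and cluster 8 held 11 and 1080. The clusters that hold this class thus differ between libraries, and the whole-class ratio compares different clusters.

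Other genes of the pathway were read from lists in the 3 classes with the highest summed level of the 8 genes. In cluster 15, 5.98% of all genes compared were higher and 15.6% lower. Of 7 other kallikreins, only Klk11 reached the level minimum in cluster 15 (94.0 and 132 CPM, 0.49), and Klk1, Klk4, Klk14 and Klk15 had no UMI there. Among 12 other serine proteases and activators, 6 were compared and 2 rose and 2 fell. St14, which encodes matriptase, rose from 56.2 to 142 CPM (1.34) and Prss8, which encodes prostasin, from 17.4 to 59.7 (1.78). Tmprss4 fell from 172 to 74.9 CPM (-1.20), a call lost with TMM factors, and Plat, the tissue plasminogen activator gene, from 34.2 to 9.24 (-1.89).

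Among 10 other epidermal proteases 9 were compared, and 3 rose and 2 fell in cluster 15. Asprv1, the retroviral-like protease of the granular layer, rose from 559 to 4922 CPM (3.14, 3.05 to 3.23), and the cathepsin gene Ctsh from 129 to 325 (1.34). Capn1 (-1.47) and Bace2 (-2.30) fell. Of the Kazal, Kunitz and WAP inhibitors 4 of 13 found were compared, and Wfdc21 alone rose, from 16.3 to 71.5 CPM (2.13). Spint1, which inhibits matriptase, had 122 and 134 CPM (0.13) and Spint2 232 and 134 (-0.79). Cst6, a cystatin that inhibits cathepsins L and V, fell from 13684 to 6757 CPM (-1.02, -1.04 to -0.99), the 1 of 4 compared in its list, a call lost with TMM factors.

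Of 10 corneodesmosome and barrier genes 9 were compared and 1 changed in cluster 15, Cdsn. It encodes corneodesmosin, a substrate of KLK5 and KLK7, and rose from 61.3 to 280 CPM (2.19, 1.92 to 2.47). Flg had 333 and 353 CPM (0.09) and Dsg1a 510 and 315 (-0.69). F2rl1, the protease-activated receptor PAR2 that kallikreins can cleave, had 67.4 and 75.5 CPM (0.16).

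Median log2 ratios in cluster 15 were 0.49 for the serine proteases, -0.39 for the other proteases, 0.37 for the Kazal, Kunitz and WAP inhibitors, -0.17 for the cystatins and 0.05 for the corneodesmosome genes, beside -0.21 for all genes compared.

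Differentiation genes did not move one way. Of 17 late genes 8 were compared, with Lce3c (5.28, 3.72 to 7.57, on 3 and 303 UMIs), Lce3d (3.1) and Lce1f (2.41) higher and Lor, Lce1m and Hrnr (-1.79) lower, Lor and Lce1m only without TMM factors. Their median was 0.85, and that of the early suprabasal list -0.46. Early suprabasal Krt1 fell from 2689 to 1143 CPM (-1.23), a call lost with TMM factors, and Mt4 from 650 to 115 (-2.49), and the other 3 of that list of 5 did not pass. Over all 47 list genes compared, 10 genes were higher and 10 lower in cluster 15, beside the 5.98% and 15.6% of all genes, and 13 were higher and 5 lower with TMM factors.

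In upper follicle keratinocyte-like cells, the same lists had St14 (32.9 to 83.6 CPM, 1.35), Asprv1 (20.4 to 112, 2.46), Cdsn (6.84 to 24.3, 1.83) and Krtdap (1.10) higher. Plat (-1.23) and Wfdc18 (46.3 to 3.37 CPM, -3.78) were lower. In outer root sheath keratinocyte-like cells Cdsn (11.4 to 25.6 CPM, 1.16) was higher and Cst6 (75.1 to 33.1, -1.18) lower. The lists were read in these 3 classes only. The share of all genes called lower in outer root sheath cells was 1.87%. All values come from the same 2 libraries.

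Over 32 points (16 classes in 2 libraries), the genes were compared by Pearson's r of log2(CPM + 10), as a description, since points share libraries and depth. Klk7 was most like Klk10 (r = 0.96), followed by Sprr1a (0.94), a cornified envelope precursor, and Ly6g6c (0.94). Klk5 was most like Casp14 (0.97), a protease of cornification, Rgs20 (0.97) and Skint10 (0.96). Klk6 was most like Slc26a9 (0.96), Pglyrp4 (0.96) and Rgs20 (0.94), and Klk9 like Ptk6 (0.95), Cyp1a1 (0.95) and Aloxe3 (0.95), a lipoxygenase of the skin barrier. For genes this low, r rests mainly on few points. Among these points Klk9 exceeded 20 CPM only in cluster 15 (195) and upper follicle keratinocyte-like cells (22.2) of the Mutant library. The highest level of Cyp1a1 was 25.2 CPM and that of Rgs20 27.1. Klk10 was most like Krt80 (0.97), Klk7 and Abca12 (0.95), the lipid transporter of lamellar granules.

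Spink5 was most like Pla2g2f (0.95), Tprg (0.95) and Krt77 (0.95), and its r with Klk5 was 0.93. Klk8 had Mbp (0.90), Pcgf5 (0.86) and Acsbg1 (0.83) nearest. Slpi was nearest to Gjb6 (0.89), a gap junction gene, Slc16a7 (0.87) and Slc35g1 (0.85), and its r with the other 7 genes ran from -0.16 to 0.20.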

How the data were processed

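Both matrices hold deposited raw UMI counts per gene and barcode, per the file headers. Cell Ranger 3.0.2, Seurat 3.0.0 and 3.1.0 and GRCm38 (mm10) are named in the submitters' processing notes. Barcodes needed 500 or more genes and no more than 15% mitochondrial UMIs (medians 3.21% and 4.92%). Scrublet (scanpy 1.11.5) calls were removed, 2.59% of Control and 3.95% of Mutant cells, where 11.3% and 9.16% were expected. From 2000 variable genes without the 8 members and the listed companion genes other than markers, with 30 components (scikit-learn 1.9.0), 15 neighbours and resolution 1, both libraries were clustered jointly by the Leiden method (leidenalg 0.10.2). A cluster was named "X-like" only where its best marker set led the next by 0.3 in mean score with at least 3 markers detected. Its 10 leading genes also had to hold no more markers of any 1 other set than of that best set.

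UMI counts were summed per class and library. Intervals were exact Poisson for levels, conditional on the 2 sums for ratios and Clopper-Pearson for shares (scipy 1.17.1), all at 95%. The size rule was tested on simulated counts drawn from the Poisson model that its intervals assume. That test cannot show how the rule behaves where few cells hold most UMIs. TMM and DESeq2 factors came from edgeR 4.0.16 and DESeq2 1.42.0. The settings varied were the cell filter, doublet removal, the resolution (0.5 and 2), joint or separate clustering, the genes used for it, level minimums of 10 and 100 CPM, mean CPM over cells and thinning to 1500 UMIs.

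Named are the 8 members, up to 4 genes per list with the largest ratios past the rule in the 3 classes where the members' summed level was highest, and the 3 genes most like each member. Other genes named were chosen after their values were seen. Members, lists and settings were chosen with earlier results of these data known. Gene positions are from GENCODE vM21.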

Additional observations from a re-analysis of the deposited data

Results flagged for a closer look

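Slpi, the elastase inhibitor gene, had log2 ratios of Mutant over Control on both sides of 0 in classes where it passed the size rule, and this is why it is listed here. It was 3.33 in cluster 15, 2.22 in inner root sheath cell-like cells and 3.50 in medulla cell-like cells, against -1.15 in upper follicle keratinocyte-like cells. With 1 library per group the difference between classes was not tested. The upper follicle value turned to 0.91 in the Cidea-led subset of that class.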

How the results depend on the processing

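The count of members past the size rule, summed over the 16 compared classes, was 14 higher and 1 lower. By class, 1.04% to 8.09% of all genes compared were higher and 0.942% to 16.1% lower. These shares were not computed under the other settings. For the members, the counts were 7 and 0 with a minimum of 100 CPM and 8 and 0 with each cell thinned. They were 5 and 0 with the libraries clustered separately, where only 10 classes could be compared. The lower count was also 0 at resolution 0.5 and in a clustering without genes past the size rule, and 2 with a minimum of 10 CPM, at resolution 2, with doublet calls kept and with members allowed in the clustering. Under the other settings the higher count ran from 12 to 18. The cause was not tested. Klk7, Klk9 and Spink5 in cluster 15 passed under all 13 settings that gave a value, with ranges of 1.77 to 2.31, 3.70 to 4.43 and 1.21 to 1.61, and Klk7 in upper follicle cells under all 11 (1.79 to 2.70). None of those 11 took the Krt6a-led subset of upper follicle cells by itself, where Klk7 had -1.12 on 21 Mutant cells. Slpi in inner root sheath cells passed under all 15 (1.99 to 3.17). Slpi passed under 12 of 13 in cluster 15, 11 of 14 in medulla cells (0.36 to 3.77) and 7 of 11 in upper follicle cells, and Klk7 in erythroid cells under all 11. Klk9 in upper follicle cells passed under 8 of 11 (1.09 to 3.37), Klk6 in cluster 15 under 9 of 13, Klk10 under 11 of 13, Klk7 in outer root sheath cells under 7 of 13 (0.42 to 2.93), and Klk7 and Klk10 in basal cells under 8 of 12 each. Slpi in upper follicle cells turned to 1.18 at resolution 2 and to 0.91 in the resolution 2 cluster that held most of the class, the latter chosen after seeing the data. Cluster 15 had no counterpart under separate clustering of the libraries, and upper follicle cells had none there, at resolution 0.5 or without the genes past the rule. No paired analysis was possible because each group is 1 matrix with no map from cells to samples, and for the same reason no sample could be left out.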
